A study of Mus musculus with 6 samples.

Results

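The genes described here are 43 genes of microglia, of the macrophages at the borders of the brain and of inflammatory signalling. They were taken by symbol from read counts of mouse forebrain RNA, and all 43 were found among the 23238 symbols listed. C57BL/6J male mice of WT genotype, 8 to 10 weeks old, received either normal chow (NCD) or, for 10 days, a diet with 60% of its kcal from fat (HFD), and each diet has 3 libraries. The RNA came from a forebrain hemisphere without olfactory bulb and cerebellum, so every cell type of the forebrain, its vessels and the blood in them is mixed in each library. The comparison asks what a short HFD does to the expression of these genes in the brain. The sources do not say that the 3 libraries of a diet came from separate mice, so the p-values measure the spread between these libraries, which may be technical.

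Microglia are the resident macrophages of the brain parenchyma. They depend on signals through the CSF1 receptor, watch neurons through the receptors for fractalkine and for purines, and take up debris and synapses tagged by complement C1q. Other macrophages line the vessels, meninges and choroid plexus. Danger or microbial signals read by Toll-like receptors lead through NF-kB to chemokines and cytokines such as IL-1β and TNF, and long-term high-fat feeding is known for such a response in the hypothalamus, which is a small part of the tissue sequenced here.

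The start regions of a few of these genes show 2 of the control elements the group is known for, the PU box bound by PU.1 (encoded by Spi1) and the NF-kB consensus. The RefSeq promoter table for GRCm38.p6 held 30 of the 43 genes. In the 250 bases before the start, read on both strands, the PU box GAGGAA was found in 17 of these 30 genes, 56.7%, against 25.9% of the 27025 genes in the table. The longer form GAGGAAGT, which contains the first motif, was found in 3 of the 30, against 2.79% of all genes, and the NF-kB consensus in 4 (C1qc, Fcgr3, Nfkbia and Tlr2), or 13.3%, against 4.46%. A match of letters is a description and shows no binding. Printed here, 5′ to 3′ on the strand of the gene with the matches in capitals, are the regions of Ctss (chr3:95526536-95526785, plus strand) and C1qb (chr4:136886201-136886450, minus strand), which carry a PU box, and of Nfkbia (chr12:55492648-55492897, minus strand), which carries an NF-kB match. They are the best-counted genes with a match whose 250 bases hold no annotated exon.
Ctss: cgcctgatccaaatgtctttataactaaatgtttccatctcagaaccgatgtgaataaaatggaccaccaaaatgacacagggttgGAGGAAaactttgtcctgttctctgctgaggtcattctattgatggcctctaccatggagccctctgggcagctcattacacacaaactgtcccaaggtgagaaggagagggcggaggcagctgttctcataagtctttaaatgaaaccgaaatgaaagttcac
C1qb: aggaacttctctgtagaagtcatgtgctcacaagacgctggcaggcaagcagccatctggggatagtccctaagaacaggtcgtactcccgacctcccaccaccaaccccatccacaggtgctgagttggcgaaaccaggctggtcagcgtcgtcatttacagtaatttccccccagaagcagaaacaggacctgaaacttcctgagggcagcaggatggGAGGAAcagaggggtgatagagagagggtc
Nfkbia: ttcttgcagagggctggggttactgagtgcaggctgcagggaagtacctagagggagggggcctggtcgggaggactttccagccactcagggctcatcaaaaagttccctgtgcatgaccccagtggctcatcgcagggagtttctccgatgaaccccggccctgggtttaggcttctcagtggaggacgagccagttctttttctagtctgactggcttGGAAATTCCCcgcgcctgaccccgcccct
The PU box of Ctss lies 164 to 159 bases before the start and that of C1qb 30 to 25 bases before it. The NF-kB match of Nfkbia lies 29 to 20 bases before the start and reads as the consensus on the other strand. All 3 genes were among the well-counted ones, and their levels on the 2 diets are given with their role groups.

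Total counts were between 6842785 and 9689372 per library, and 3 counts, taken as the floor, were worth 0.316 to 0.432 CPM (counts per 1000000 of the TMM-scaled library size). The 45S ribosomal entry Rn45s took 5.55% to 8.75% of the counts. Defining microglial genes were present in every library, as were neuronal markers, whose 6 genes summed to between 4656 and 4987 CPM. The 7 red blood cell genes summed to 610, 738 and 661 CPM on NCD and to 990, 762 and 1190 CPM on HFD, so the diets did not overlap. Of these 7 genes, 6 (all globins) had an unadjusted p under 0.05 in edgeR, and the lowest adjusted p was 0.814. The globin entries may not all be separate measurements. Reads with multiple alignments were counted, and why some globin entries had similar counts was not tested. Hbb-b1 and Hbb-bs had nearly the same counts in each library (1298 and 1316 in NCD replicate 1), as did Hbb-b2 and Hbb-bt (232 and 253). The sums may therefore hold the same reads more than once.

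After 10 days of HFD no call was made among the microglia, macrophage and inflammatory genes. Of the 43 genes, 36 had enough counts to be tested, and the 7 others were the 6 chemokines and cytokines (Ccl19, Ccl2, Ccl3, Ccl4, Il1b and Tnf) and Tlr4. In edgeR's quasi-likelihood test 0 of the 36 passed an adjusted p of 0.05, where 0 of all 13771 genes did (0%), and 0 of the 36 had an unadjusted p under 0.05, against 507 of all genes (3.68%). DESeq2 gave 0 of the 36 by either rule as well and called 2 genes of the whole table. The lowest unadjusted p of the 36 was 0.107, for Ptprc, and the lowest adjusted p was 0.979. A fold of at least 1.5 with an unadjusted p under 0.05 was met by 0 of the 36 and by 1.28% of all genes. The log2 fold changes (HFD over NCD) ran from -0.33 for Sall1 to 0.91 for Cd163, with 20 positive and 16 negative. Their median was 0.08, beside -0.0025 for all genes tested, and it was 0.18 without NCD replicate 2 and 0.018 without NCD replicate 3.

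For 16 of the 36 genes the 95% confidence interval of the fold change lay within 1.5-fold in both directions, against 62.5% of all genes. In these 16, which include Cx3cr1, Csf1r, Tmem119, C1qa, C1qb, C1qc, Ctss, Laptm5 and Nfkbia, a change of 1.5-fold lies outside the interval. In the other 20 the interval reaches past 1.5-fold in at least 1 direction, so a change of that size in that direction is not excluded. The coefficient of variation between libraries of a diet had a median of 18.2% (NCD) and 16.0% (HFD) over the 36 genes, beside 11.6% and 13.3% over all genes. In bulk tissue, fewer cells of a type and less RNA per cell cannot be told apart.

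**Figure D1:**
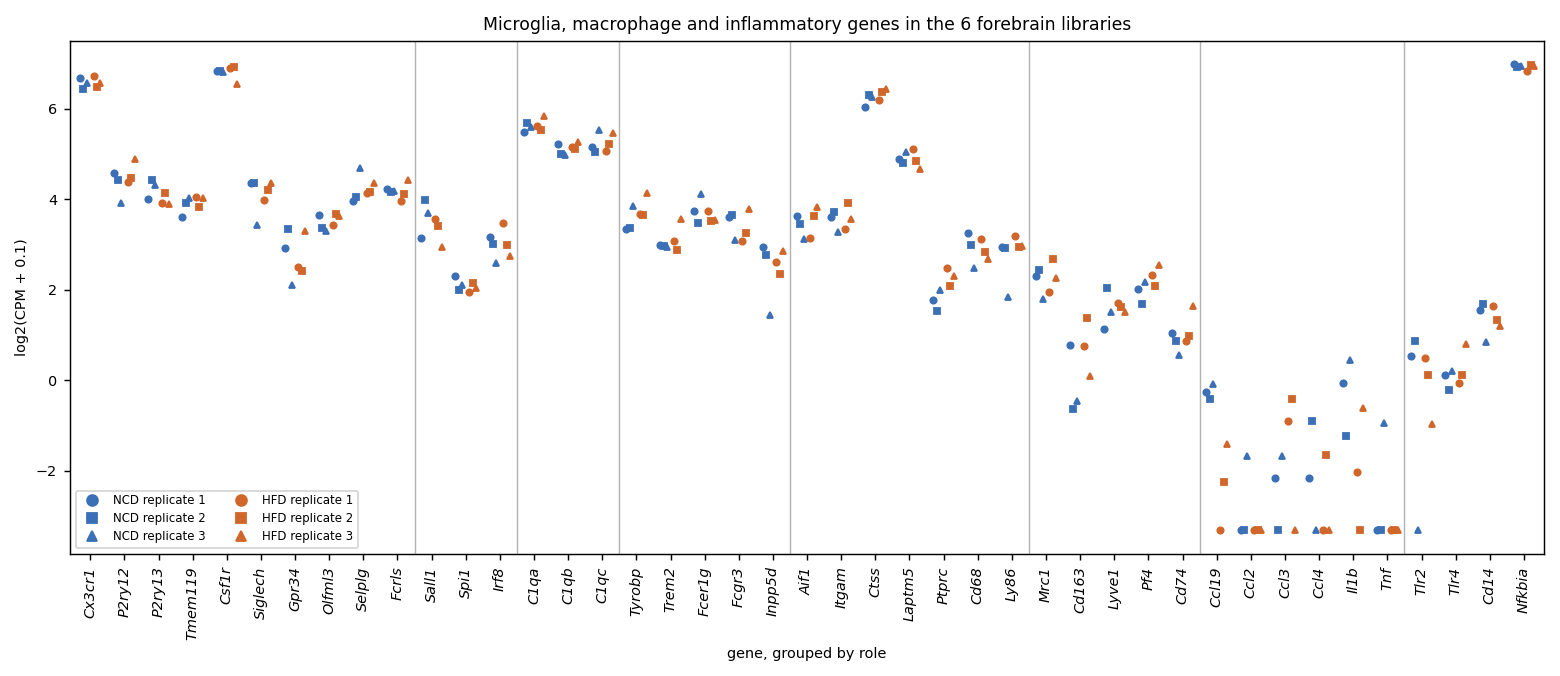
Level of each of the 43 genes in each library as log2(CPM + 0.1), with genes on the x axis in their role groups, NCD in blue, HFD in orange and the marker shape giving the replicate number. The points of both diets lie within each other's range for nearly all genes, and the chemokines and cytokines sit at the floor, where several libraries hold no count.

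**Figure D2:**
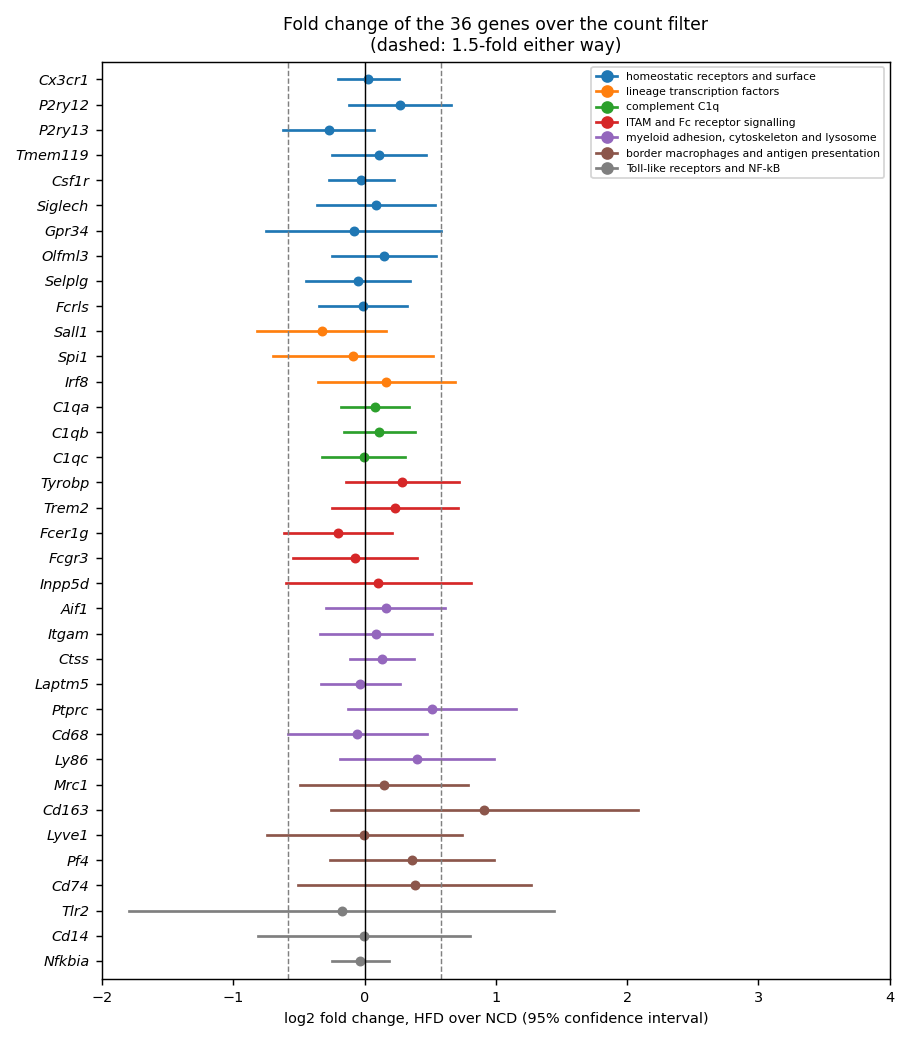
Log2 fold change (HFD over NCD) of the 36 genes tested, as a point with its 95% confidence interval, coloured by role group, with dashed lines at 1.5-fold either way. Every interval includes 0; the intervals are narrow for Csf1r, Cx3cr1, Ctss and Nfkbia and wide for Cd163 and Tlr2.

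The receptors and surface proteins of resting microglia differed in sum by less than the spread between libraries. The 10 genes together gave 335 ± 8.19 CPM (SD, n = 3) on NCD and 338 ± 4.51 CPM on HFD. Csf1r, the receptor on which microglial survival depends, was at 114, 115 and 113 CPM on NCD and 120, 122 and 93.1 CPM on HFD. The NCD libraries lay close together, and HFD replicate 3 was below all others. Its log2 fold change was -0.02 (SE 0.12), with a fold interval from 0.828 to 1.17. Cx3cr1, the fractalkine receptor, was at 103, 87.2 and 94.5 CPM on NCD and 106, 89.5 and 95.6 CPM on HFD. The diets overlapped almost fully, with a log2 fold change of 0.03 (SE 0.11) and a fold interval from 0.867 to 1.20.

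The purine receptors P2ry12 and P2ry13, which lie beside each other within Med12l, had log2 fold changes of opposite sign. P2ry12, which senses ADP and steers the processes of microglia, had 0.27 (SE 0.18) and P2ry13 had -0.27 (SE 0.16), and the diets overlapped in both. Exons of P2ry12 overlap Med12l on the other strand, as those of Cx3cr1 overlap Gm33858 and those of Csf1r overlap Hmgxb3. The use of strand in the counting is not given in the sources used here. The other 6 genes had log2 fold changes between -0.08 and 0.15: 0.11 for Tmem119, a microglial membrane protein, 0.09 for Siglech, a sialic acid binding receptor, -0.08 for Gpr34, a lysophospholipid receptor, 0.15 for Olfml3, a secreted protein, -0.05 for Selplg, a selectin ligand, and -0.01 for Fcrls, a receptor of the Fc receptor-like family. Siglech and Gpr34 spread most on NCD, where replicate 3 held 10.7 and 4.21 CPM against 20.6 and 7.53 CPM in replicate 1.

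The transcription factors of the lineage were counted at lower levels and with wider intervals. Sall1, which keeps microglia in their resting identity, was at 8.76, 15.7 and 12.9 CPM on NCD and 11.8, 10.5 and 7.56 CPM on HFD. The diets overlapped, with NCD replicate 1 among the low libraries, and the log2 fold change was -0.33 (SE 0.23) with a fold interval from 0.567 to 1.12. Irf8, a factor of macrophage development and activation, was at 8.89, 7.98 and 5.90 CPM on NCD and 11.1, 7.87 and 6.60 CPM on HFD, and its log2 fold change was 0.17 (SE 0.25). Spi1, which encodes PU.1, ranged from 3.74 to 4.81 CPM over the 6 libraries with a log2 fold change of -0.09 (SE 0.29).

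The 3 chains of complement C1q, the starter of the classical pathway that tags synapses and debris, were well counted and did not separate by diet. C1qa was at 44.8, 51.6 and 48.6 CPM on NCD and 49.5, 46.2 and 57.5 CPM on HFD, a log2 fold change of 0.08 (SE 0.12) with a fold interval from 0.881 to 1.26. C1qc was at 35.5, 33.1 and 46.4 CPM on NCD and 33.4, 37.4 and 43.9 CPM on HFD, a log2 fold change of -0.01 (SE 0.15). C1qb was at 37.0, 32.1 and 31.3 CPM on NCD and 35.8, 34.3 and 38.4 CPM on HFD, a log2 fold change of 0.11 (SE 0.13). Replicate 3 of each diet held the highest C1qc level of its group. Together the chains gave 120 ± 5.27 CPM on NCD and 125 ± 12.3 CPM on HFD.

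Genes of ITAM and Fc receptor signalling summed to 49.9 ± 1.58 CPM on NCD and 52.0 ± 8.47 CPM on HFD. Tyrobp, the adaptor DAP12 that carries the signal of TREM2, was at 10.1, 10.1 and 14.4 CPM on NCD and 12.7, 12.5 and 17.5 CPM on HFD. On both diets replicate 3 was the highest, NCD replicate 3 lay above 2 of the HFD libraries, and the log2 fold change was 0.29 (SE 0.20) with a fold interval from 0.907 to 1.65. Fcer1g, the Fc receptor gamma chain, was at 13.3, 11.0 and 17.3 CPM on NCD and 13.4, 11.4 and 11.5 CPM on HFD, with a log2 fold change of -0.20 (SE 0.19). Trem2, a lipid and lipoprotein receptor, had 0.23 (SE 0.23), Fcgr3, a receptor for IgG, -0.07 (SE 0.22) and Inpp5d, the phosphatase SHIP1 that dampens these signals, 0.11 (SE 0.33). Of the 75-base stretches of Fcgr3, 5.42% also occur in Fcgr2b, so reads there could be shared between both genes.

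Among the myeloid adhesion, cytoskeleton and lysosome genes, Ptprc was the only tested gene of the 36 whose diets did not overlap, where 8.81% of all genes did not (4.31% with HFD higher). Ptprc (chr1:138062861-138175708, minus strand) encodes CD45, the phosphatase on the surface of all nucleated blood cells and microglia. It was at 3.33, 2.80 and 3.90 CPM on NCD and 5.47, 4.15 and 4.81 CPM on HFD, means of 3.35 ± 0.547 and 4.81 ± 0.659 CPM (SD, n = 3). Each HFD library lay above each NCD library, the lowest HFD value standing just over the highest NCD value. The log2 fold change was 0.52 (SE 0.30) with a fold interval from 0.918 to 2.23 and an adjusted p of 0.979 in edgeR, and an exact permutation test of 3 against 3 libraries cannot go below 0.1. Quantile normalization with limma gave an unadjusted p of 0.0224 for Ptprc and an adjusted p of 0.978.

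Markers of blood cells that also carry CD45 were measured beside it. The 6 monocyte genes summed to between 15.9 and 21.8 CPM on NCD and between 18.6 and 25.9 CPM on HFD. Most of this came from Vcan. The defining Ccr2 had 3, 4 and 1 counts on NCD and 0, 2 and 11 on HFD. Plac8 had 0, 3 and 0 counts on NCD and 3, 4 and 6 on HFD, and in CPM its diets did not overlap, with HFD higher. Chil3 had 0 counts in each NCD library and 3, 1 and 0 on HFD, and Ms4a4c had 2 counts, in NCD replicate 2 only. Ly6c2 had a log2 fold change of 0.36 (SE 0.36), and its diets overlapped. The 8 granulocyte genes summed to between 4.21 and 5.18 CPM on NCD and between 5.14 and 9.21 CPM on HFD. Within them S100a9, a calcium-binding protein of neutrophils, was at 1.23, 1.29 and 1.37 CPM on NCD and 4.75, 1.86 and 3.57 CPM on HFD, with a log2 fold change of 1.35 (SE 0.43) and an adjusted p of 0.979, while Mpo was at 0 in all libraries. S100a8 had a log2 fold change of 0.71 (SE 0.42), and its diets overlapped. Among the granulocyte genes with fewer counts, Ngp and Ltf were lower on HFD. Ngp had 6, 12 and 6 counts on NCD and 1, 1 and 3 on HFD, and Ltf had 4, 1 and 4 on NCD and 0 in each HFD library. The few counts of Camp, Retnlg and Elane overlapped between the diets, with Camp at 3, 4 and 1 on NCD and 0, 3 and 6 on HFD. The 8 lymphocyte genes had between 1 and 6 counts in total in any library, with Ms4a1 at 0 in all. The part of these cells and of the red blood cell signal in the Ptprc values was not tested.

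The 7 genes of this role group summed to 141, 150 and 140 CPM on NCD and 150, 158 and 157 CPM on HFD, a mean ratio of 1.08. The gap between the diets was narrow, 149.6 CPM in the highest NCD library against 150.1 CPM in the lowest HFD library, and with library size alone they did overlap, at 137 to 154 CPM on NCD and 150.3 to 158 CPM on HFD. Ctss, the lysosomal protease cathepsin S, was at 66.3, 79.6 and 76.3 CPM on NCD and 73.7, 82.9 and 87.2 CPM on HFD and makes up more of this sum than any other gene. Its diets overlapped, with a log2 fold change of 0.13 (SE 0.11) and a fold interval from 0.928 to 1.30. Laptm5, a lysosomal membrane protein of blood cells, was at 29.5, 27.9 and 32.8 CPM on NCD and 34.4, 28.6 and 25.3 CPM on HFD, with a log2 fold change of -0.03 (SE 0.14). Aif1, the actin-binding protein IBA1 widely stained to show microglia, had a log2 fold change of 0.16 (SE 0.21), Cd68, a lysosomal glycoprotein, -0.05 (SE 0.25), and Ly86, a partner of a Toll-like receptor homologue, 0.40 (SE 0.28). Ly86 was at 3.48 CPM in NCD replicate 3 and between 7.44 and 9.07 CPM in the other 5 libraries, and with DESeq2's scaling its diets did not overlap. For Itgam, the integrin CD11b, the value was 0.09 (SE 0.20), and 65.2% of its 75-base stretches also occur in the overlapping gene Gm49368 (same strand), which leaves the count of Itgam uncertain.

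Genes of border macrophages and antigen presentation summed to 14.4, 14.7 and 12.5 CPM on NCD and 15.1, 17.8 and 17.2 CPM on HFD, a mean ratio of 1.20 with no overlap of the diets, while the diets overlapped in each of the 5 genes. A second list of 12 further border macrophage genes went the other way. It summed to 28.5, 28.0 and 24.1 CPM on NCD and 19.1, 25.2 and 20.6 CPM on HFD, a mean ratio of 0.806 with overlap of the diets. Mrc1, the mannose receptor, was at 4.81, 5.29 and 3.37 CPM on NCD and 3.74, 6.34 and 4.67 CPM on HFD, with a log2 fold change of 0.15 (SE 0.30). Pf4, a chemokine of platelets that border macrophages also express, was at 3.95, 3.13 and 4.42 CPM on NCD and 4.89, 4.15 and 5.77 CPM on HFD. In Pf4 only the lowest HFD library fell below the highest NCD library, and the log2 fold change was 0.36 (SE 0.29) with a fold interval from 0.832 to 1.98. Cd163, the scavenger receptor for haemoglobin and haptoglobin, had a log2 fold change of 0.91 (SE 0.55) and a fold interval from 0.837 to 4.23, and rests on few counts, between 0.539 and 2.51 CPM. Without NCD replicate 1, which held 1.60 CPM, the log2 fold change of Cd163 was 1.53, with an unadjusted p of 0.0342 and an adjusted p of 0.998. Cd74, the invariant chain of MHC class II, had 0.38 (SE 0.42) and Lyve1, a hyaluronan receptor, -0.0014 (SE 0.35). The red blood cell sums given above moved in the same direction as the sum of the 5 border macrophage genes. They moved opposite to the sum of the 12 further genes, and the part of red blood cells in either sum was not tested.

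Chemokines and cytokines were near the floor of detection. The 6 genes together had 15, 13 and 28 counts on NCD and 4, 9 and 6 on HFD, or 2.07 ± 0.796 and 0.795 ± 0.205 CPM (SD, n = 3), and each HFD sum lay below each NCD sum. The pooled counts of 56 on NCD and 19 on HFD give a ratio of 0.390 with an exact binomial interval from 0.219 to 0.666, which covers counting error only. Without Ccl19 the pooled counts were 36 and 16 and the ratio was 0.511, with an interval from 0.265 to 0.944. Of these counts Il1b alone held 22 on NCD and 5 on HFD, while Ccl3 had 3 on NCD and 9 on HFD. A second list of 25 cytokine, chemokine and inflammasome genes summed to 60.3 ± 1.95 CPM on NCD and 61.9 ± 4.57 CPM on HFD. The diets overlapped in that sum, of which Il18 made up 26.3 and 25.9 CPM.

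Ccl19 (chr4:42754525-42756577, minus strand), a chemokine that draws T cells and dendritic cells through CCR7, had 6, 6 and 8 counts on NCD and 0, 1 and 2 on HFD. In CPM these were 0.741, 0.647 and 0.843 against 0, 0.109 and 0.275, so every HFD library was below every NCD library and under the floor. The pooled ratio was 0.172 with a counting interval from 0.0328 to 0.581. In the fit without a filter on low counts, where 4.76% of the 18936 genes had an unadjusted p under 0.05, Ccl19 had an unadjusted p of 0.0454 and an adjusted p of 0.941. Over the alternatives the unadjusted p for Ccl19 in these fits lay between 0.0020 and 0.148, and in edgeR it was above 0.05 whichever library was left out, except HFD replicate 3, without which the log2 fold change was -3.32 beside -2.40 with all libraries. Of its 75-base stretches 45.3% also occur in Ccl19-ps1, Ccl19-ps3, Gm12407 or Gm2564, and reads with multiple alignments were counted, so these counts may hold reads of the copies.

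Il1b, which encodes the cytokine IL-1β, had 7, 3 and 12 counts on NCD and 1, 0 and 4 on HFD, or 0.864, 0.324 and 1.26 CPM against 0.144, 0 and 0.550 CPM. NCD replicate 2 lay below HFD replicate 3, so the diets overlapped. The pooled ratio of Il1b was 0.261, with a counting interval from 0.0773 to 0.707, and the fit without a filter gave a log2 fold change of -1.82 (SE 1.06) and an adjusted p of 0.941. The value for Il1b rests on single libraries, since it was -3.41 with an unadjusted p of 0.0257 in edgeR without HFD replicate 3 and -1.19 without HFD replicate 2. Exons of Il1b overlap the antisense gene Il1bos. The chemokine Ccl3 had 1, 0 and 2 counts on NCD and 3, 6 and 0 on HFD, and Ccl4 had 1, 4 and 0 against 0, 2 and 0, so the pair did not order the diets in one way. Tnf had 4 counts and Ccl2 2 counts, all in NCD replicate 3, and both were at 0 in the HFD libraries, each of which allows up to 0.328 to 0.432 CPM.

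The Toll-like receptors and the NF-kB inhibitor did not separate by diet. Nfkbia encodes IκBα, which holds NF-kB in the cytoplasm and is itself induced by NF-kB, so it is often read as a gauge of the pathway. It was at 127, 121 and 124 CPM on NCD and 115, 126 and 123 CPM on HFD, a log2 fold change of -0.03 (SE 0.10) with a fold interval from 0.841 to 1.14. The 6 libraries lay within a narrow range, with HFD replicate 1 the lowest. Nfkbia is expressed by many cell types, so its level is not that of microglia alone. Cd14, a co-receptor for lipopolysaccharide, was at 2.84, 3.13 and 1.69 CPM on NCD and 3.02, 2.40 and 2.20 CPM on HFD, with a log2 fold change of -0.0049 (SE 0.38). Tlr2, a receptor for bacterial lipopeptides, was at 1.36, 1.73 and 0 CPM on NCD and 1.30, 0.983 and 0.412 CPM on HFD, and its fold interval ran from 0.288 to 2.72. Tlr4, the receptor for lipopolysaccharide, had 8, 7 and 10 counts on NCD and 6, 9 and 12 on HFD.

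**Figure D3:**
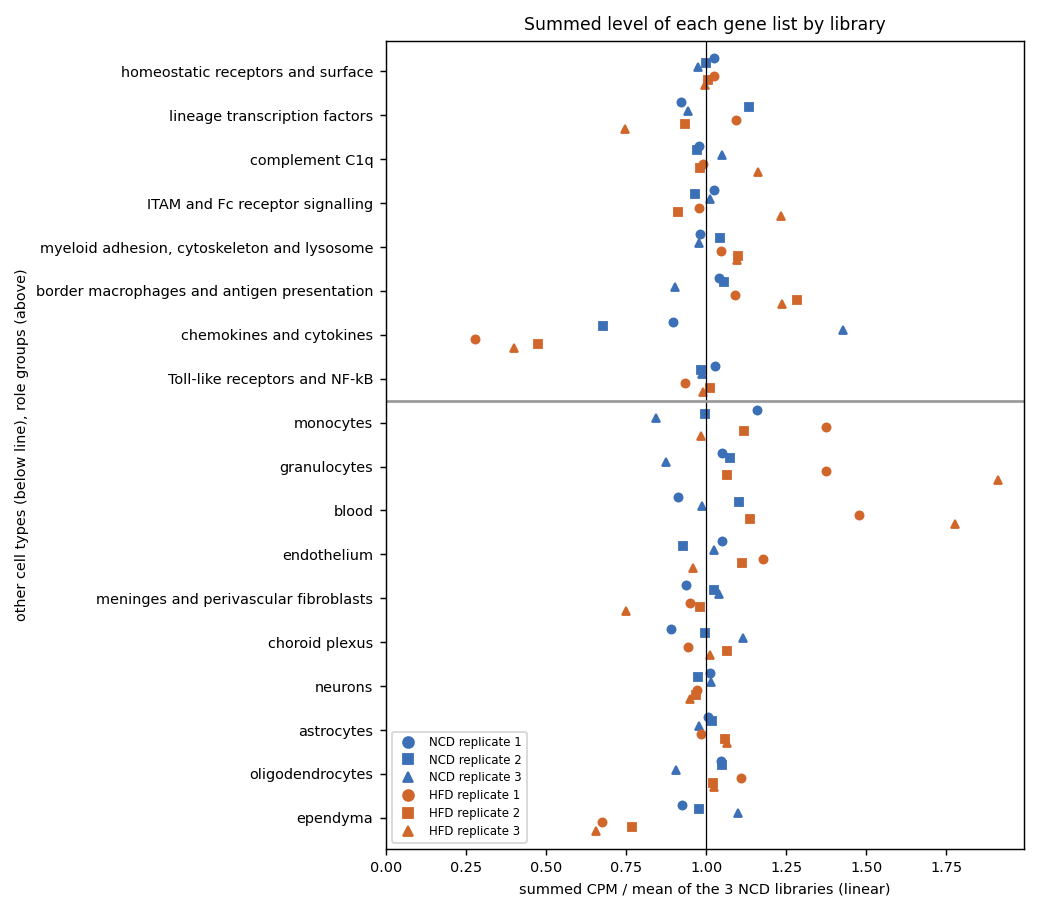
Summed CPM of each role group (above the line) and of marker genes of other cell types (below it) in each library, divided by the mean of the 3 NCD libraries on a linear axis from 0. The homeostatic receptors and the Toll-like receptor and NF-kB group stay close to 1 in all libraries, the lineage transcription factors lie low and the ITAM and Fc receptor genes high in HFD replicate 3, the border macrophage genes lie above 1 in all HFD libraries, the chemokines and cytokines and the ependyma lie below 1 in all HFD libraries, and the blood genes lie above 1 in all HFD libraries.

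Single libraries stood out over several of these genes. NCD replicate 3, which has the highest total count, held the lowest value of 15 of the 36 genes (41.7%), where it held the lowest value of 21.7% of all genes tested. HFD replicate 3 held the highest value of 12 of the 36 (33.3%), where it did so in 26.2% of all genes. P2ry12, Siglech, Gpr34, Inpp5d and Ly86 were among those lowest in NCD replicate 3, and Tyrobp, Trem2 and Cd74 among those highest in HFD replicate 3. The median deviation of the 36 genes from their mean over libraries, on the log2(CPM + 1) scale, was -0.09 in NCD replicate 3 and 0.12 in HFD replicate 3, and between -0.02 and 0.05 in the other 4 libraries.

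**Figure D4:**
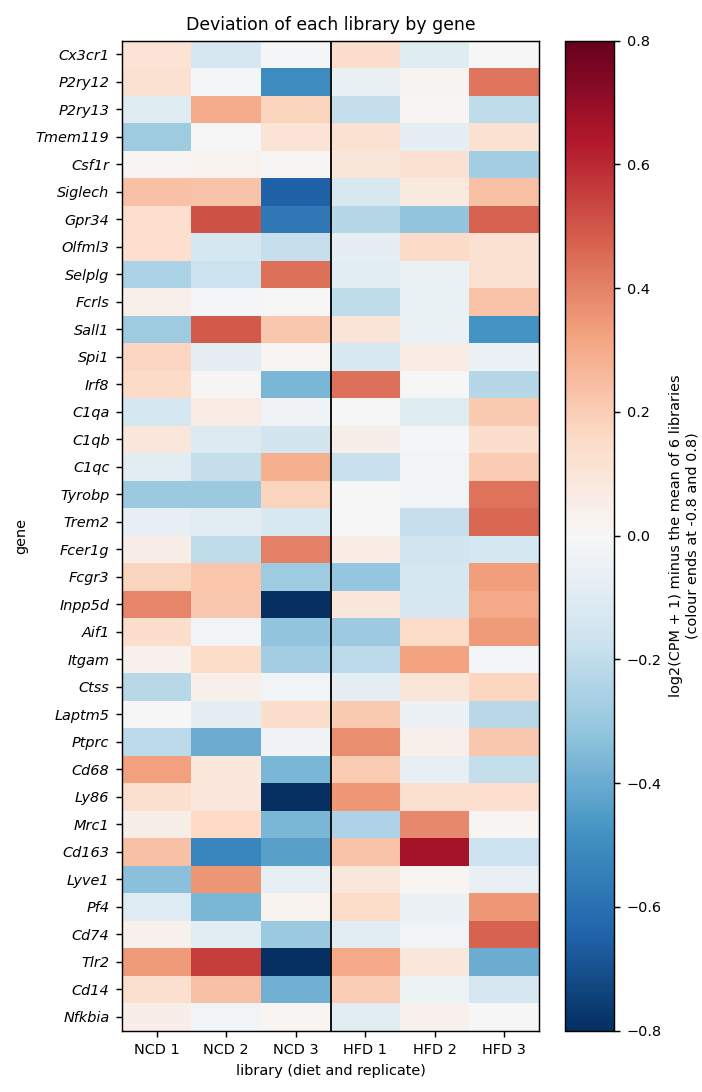
Deviation of each library (columns) from the mean of the 6 libraries for each of the 36 tested genes (rows), as log2(CPM + 1), with red above and blue below the mean and colours ending at -0.8 and 0.8. The column of NCD replicate 3 holds the darkest blue cells (Siglech, Gpr34, Inpp5d, Ly86 and Tlr2), and no block of genes changes colour at the line between the diets.

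Further genes of the same pathways were read from lists of 134 genes, of which 91 were tested. Of these 91, 0 had an adjusted p under 0.05 and 4 had an unadjusted p under 0.05, 1 of them higher and 3 lower on HFD, where 3.68% of all genes did. The 91 log2 fold changes had a median of -0.02. The diets did not overlap in 2 genes with HFD higher and 5 with HFD lower, where 8.81% of all genes did not overlap.

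Cd53, a tetraspanin of immune cells from the list of further microglial genes, was at 5.18, 5.50 and 4.11 CPM on NCD and 5.90, 7.76 and 7.97 CPM on HFD, with a log2 fold change of 0.55 (SE 0.25), an unadjusted p of 0.0432 and an adjusted p of 0.979 in edgeR. Like Ptprc, Cd53 is carried by leukocytes of the blood as well as by microglia. It was the only one of 25 tested genes of its list with an unadjusted p under 0.05, and 11 of the 25 had positive and 14 negative log2 fold changes.

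Csf1, which encodes a ligand of the CSF1 receptor, was at 15.8, 18.1 and 18.5 CPM on NCD and 11.7, 15.5 and 8.94 CPM on HFD. The highest HFD library lay just under the lowest NCD library. The log2 fold change was -0.53 (SE 0.19) with a fold interval from 0.521 to 0.922, an unadjusted p of 0.0150 and an adjusted p of 0.979 in edgeR. Il34, the other ligand of that receptor, which neurons supply, had a log2 fold change of -0.13 (SE 0.13). Among the genes of activated microglia, where Csf1 was listed, 0 of the 11 others tested had an unadjusted p under 0.05, with Apoe at -0.04 (SE 0.09), Ctsb at -0.02 (SE 0.10) and Spp1 at 0.35 (SE 0.20). Cst7 and Itgax, genes known for strongly activated microglia, had at most 1 count in any library. Also under the count filter in this list, Lgals3 had 7, 6 and 3 counts on NCD and 7, 10 and 15 on HFD. Cybb had 6, 13 and 13 counts on NCD and 5, 4 and 5 on HFD. In CPM the diets did not overlap for Lgals3 or Cybb. Ch25h had 0, 1 and 5 against 8, 4 and 7 counts and Clec7a 4, 1 and 9 against 3, 9 and 1, with overlap. In edgeR without the filter Lgals3, Cybb and Ch25h each had an adjusted p of 0.941. Of the 7 tested ligands and receptors of microglial signalling, 0 had an unadjusted p under 0.05, with Cx3cl1, the fractalkine of neurons, at -0.06 (SE 0.11).

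Icam1, an adhesion molecule for leukocytes induced through NF-kB, had 17, 26 and 28 counts on NCD and 7, 15 and 5 on HFD, or 2.10, 2.80 and 2.95 CPM against 1.01, 1.64 and 0.687 CPM. Every HFD library was below every NCD library, and the log2 fold change was -1.20 (SE 0.44) with a fold interval from 0.228 to 0.835, an unadjusted p of 0.0155 and an adjusted p of 0.979 in edgeR. It was the only one of the 91 genes past both the fold of 1.5 and the unadjusted p, where 1.28% of all genes were. In the Toll-like receptor and NF-kB list 0 of the 21 others tested had an unadjusted p under 0.05, with 10 of the 22 positive and 12 negative, and Vcam1, another adhesion molecule, at 0.08 (SE 0.14).

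Stab1, a scavenger receptor of macrophages and sinusoidal endothelium, was at 8.64, 8.41 and 7.90 CPM on NCD and 5.18, 7.21 and 4.40 CPM on HFD, with a log2 fold change of -0.56 (SE 0.24), an unadjusted p of 0.0352 and an adjusted p of 0.979 in edgeR. The list of further border macrophage genes, where it stood, had 2 positive and 5 negative values among 7 tested, while the 5 border genes above had 4 positive and 1 negative. None of the 9 tested complement genes beyond C1q and none of the 9 tested genes of cytokines, chemokines and the inflammasome had an unadjusted p under 0.05, and 16 of the 25 listed in the latter were under the count filter. Among those, Cxcl2 had 9 counts in NCD replicate 3 and 0 in the other 5 libraries, the same library that held all counts of Tnf and Ccl2. The unadjusted p of Csf1 lay between 0.0022 and 0.0633 over the alternatives, that of Icam1 between 0.0028 and 0.0667, that of Cd53 between 0.0166 and 0.123, and that of Stab1 between 0.0112 and 0.118.

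**Figure D5:**
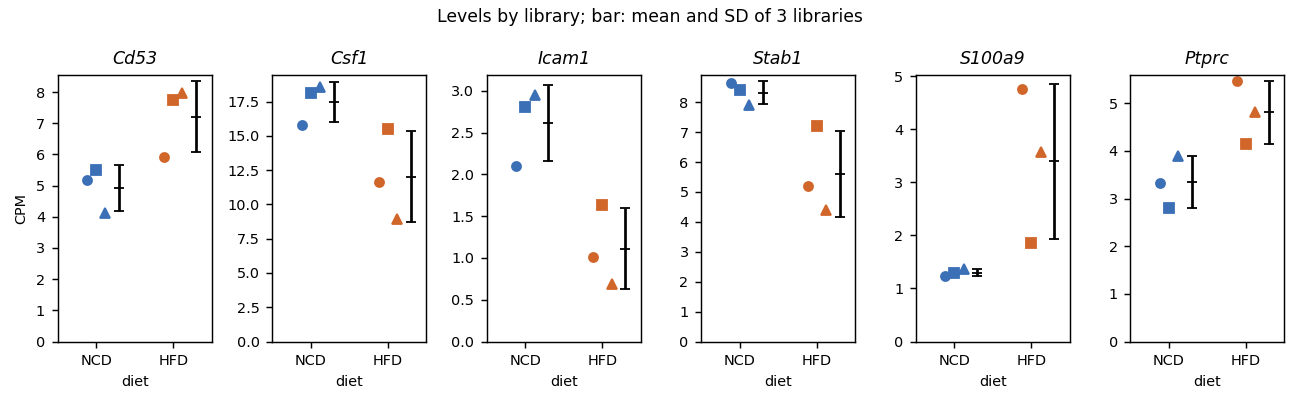
CPM by library of Cd53, Csf1, Icam1, Stab1, S100a9 and Ptprc on a linear axis from 0, NCD in blue and HFD in orange with the marker shape giving the replicate number, and the mean with its SD beside the points. In all 6 panels the diets do not overlap; the HFD points lie higher for Cd53, S100a9 and Ptprc and lower for Csf1, Icam1 and Stab1.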

How the data were processed

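RNA of 6 forebrain hemisphere samples, 3 per diet, was sequenced as QuantSeq 3′ libraries with single reads of 75 bases. After adaptor trimming, the authors mapped to mm10 with Bowtie2 and counted unique and multiple alignments with bedtools. The deposited values are these raw read counts per gene, without normalization. QuantSeq reads lie near the 3′ end of a transcript. Versions, annotation and use of strand are not given in the sources used here. A symbol is repeated in 79 of the 23282 entries. The second entry of Ccl19 was at 0 in all libraries.

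Counts were tested with edgeR 4.0.16 in R 4.3.3 (filterByExpr at 10 counts and 15 in total, TMM, glmQLFit and glmQLFTest, Benjamini-Hochberg over 13771 genes). CPM used TMM-scaled library sizes. Standard errors are log2 fold changes over the root of F. Genes under the filter (5165 with a count) were read from the same fit without it. Alternatives were DESeq2 1.42.0, library size alone, quantile-normalized log2(CPM + 1) with limma 3.58.1, no filter, a block for the replicate number, and leaving out each library. The fits were tested on simulated data. Floors and counting intervals cover counting error only. Positions are from GENCODE vM21 and promoters from RefSeq, both on GRCm38. Plots used matplotlib 3.10.9.

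The genes, role groups and pathway lists were chosen with earlier results of these data known. Values in every library are given for genes with an unadjusted p under 0.05, those whose diets did not overlap, and the 2 genes of each role group with the highest mean CPM. Of the pathway lists, genes are named that have an unadjusted p under 0.05 with either a fold of 1.5 or no overlap of the diets. The choice of other pathway and marker genes followed a look at their values.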

Additional observations from a re-analysis of the deposited data

How the results depend on the processing

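Of the genes tested, 0 microglia, macrophage or inflammatory genes had an adjusted p under 0.05 in edgeR, DESeq2, limma, with library size alone, without a filter, with the block or with any library left out, and the lowest adjusted p of any of them over these was 0.839. With DESeq2, 2 genes of the whole table were called. By its scaling 2 of the 36 did not overlap between diets (Ptprc and Ly86), or 5.56%, against 8.76% of all genes. Quantile normalization with limma gave an unadjusted p under 0.05 for Ptprc alone of the 36, with an adjusted p of 0.978. Without a filter 23 genes of the whole table were called, 902 had an unadjusted p under 0.05 and 396 a fold of 1.5 as well. Of the 43 genes 1 (Ccl19) met each of the last 2 rules. With 1 library left out the calls over all genes ranged from 0 to 3, the unadjusted ones from 411 to 773, those among the 36 genes from 0 to 3 and those with the fold from 0 to 1. The unadjusted ones were P2ry13, Sall1 and Cd163 without NCD replicate 1 (of which Cd163 also met the fold) and Tyrobp without NCD replicate 3. The median log2 fold change ranged from 0.018 to 0.18 and the number of the 36 not overlapping from 3 to 8 (8.33% to 22.2%), where 18% to 20.4% of all genes in the same fits did not overlap, since fewer libraries were compared. The 8 were without NCD replicate 1, where 18.2% of all genes did not overlap. Scaling moved the median of all genes by -0.02 to 0.0033.

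The sign changed with DESeq2 for Lyve1 (0.0014), with quantile normalization for Selplg (0.011), C1qc (0.0071), Lyve1 (0.045) and Cd14 (0.026), and with the replicate block for C1qc (0.0021), Lyve1 (0.020) and Cd14 (0.0068). In 21 genes the sign depended on 1 library: leaving out each, log2 fold changes ranged for Cx3cr1 -0.037 to 0.092, Csf1r -0.095 to 0.092, Siglech -0.17 to 0.23, Gpr34 -0.42 to 0.23, Selplg -0.18 to 0.22, Fcrls -0.14 to 0.085, Irf8 -0.059 to 0.31, C1qa -0.016 to 0.15, C1qc -0.11 to 0.16, Fcgr3 -0.30 to 0.059, Inpp5d -0.24 to 0.38, Itgam -0.092 to 0.21, Laptm5 -0.15 to 0.062, Cd68 -0.25 to 0.13, Mrc1 -0.090 to 0.30, Lyve1 -0.19 to 0.28, Ccl4 -3.72 to 0.43, Tlr2 -0.78 to 0.47, Tlr4 -0.0014 to 0.48, Cd14 -0.24 to 0.18, Nfkbia -0.061 to 0.0042. The cause was not tested.

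The replicate numbers are shared by the diets, but samples with the same number did not deviate together over genes (r of -0.03, 0.05 and -0.06). Replicate 3 had the highest share of Rn45s on both diets, at 7.35% (NCD) and 8.75% (HFD). Whether samples with the same number share a batch cannot be told from these values. With the replicate block 371 genes had an unadjusted p under 0.05, 155 a fold of 1.5 as well, and 0 of the 36 either, while the unadjusted p was 0.0819 for Ccl19 and 0.0575 for Cd53 and stayed under 0.05 for Csf1, Icam1 and Stab1. At 3 libraries per diet and these depths, the chemokines and cytokines lie at the limit of counting.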

Other observations

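Ependymal genes, shown above as a sum relative to NCD, summed to 22.8, 24.2 and 27.2 CPM on NCD and 16.7, 19.0 and 16.2 CPM on HFD, so the diets did not overlap. Among them Rsph1, a protein of motile cilia, was at 8.15, 7.66 and 6.74 CPM on NCD and 5.47, 3.82 and 3.71 CPM on HFD, with a log2 fold change of -0.80 (SE 0.26) and an adjusted p of 0.979 in edgeR.

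Tgfb1, the cytokine on which microglial identity depends, is listed at 0 in all 6 libraries. The files do not show whether this 0 comes from the annotation, the counting or the tissue, and it is not read here as absence of expression.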
